A study of Mus musculus with 6 samples.

Results

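The genes described here are 10 markers of T lymphocytes and natural killer (NK) cells: Cd2, Cd3e, Cd3g, Cd247, Cd4, Cd8a, Klrd1, Nkg7, Gzma and Gzmb. They were taken by name, each through its brightest probe set with that single gene symbol, and all 10 were measured, out of 18193 genes on the arrays. They had 18 such probe sets in all. RNA came from pancreatic tumour cells of C57BL/6 mice at 11 weeks of age, 1 array per sample. In 3 samples the genotype was Msi1 -/-, without Musashi 1, an RNA-binding protein of progenitor cells, and in the other 3 it was given as wt. Both groups carried engineered tumour alleles, among them p53f/f, together with ptf1a-Cre, which directs recombination to the pancreatic lineage, so wt refers to Msi1 and not to a healthy pancreas. The labels give neither how the tumour cells were isolated nor whether blood and immune cells were removed, and they do not tie the samples to individual mice, so the spread behind each p-value is that of these 6 samples and may be technical.

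T cells recognise peptides through the T cell receptor, whose signal passes through the CD3 chains and the zeta chain encoded by Cd247. The co-receptors CD4 and CD8 bind MHC class II and class I molecules and divide T cells into helper and cytotoxic lineages. NK cells and cytotoxic T cells share the granule proteins that kill target cells, among them the granzymes, and the lectin-like receptor chain CD94, the product of Klrd1. In pancreatic cancer such lymphocytes are usually sparse beside macrophages, neutrophils and fibroblasts.

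Levels are linear intensities as the authors deposited them. Because these genes were dim, each array was given a background, the 95th percentile of its 44 probe sets for olfactory receptors, a family not normally expressed in the pancreas. It lay between 161.2 and 167.5 in Msi1 -/- arrays and between 154.4 and 164.1 in wt arrays. The median olfactory value lay between 102.6 and 108.6 in Msi1 -/- arrays and between 101.0 and 104.6 in wt arrays. Epithelial markers of the tumour cells, among them Krt8, Krt18 and Epcam, were above background in every array for 6 of 6 genes, and so were 5 of 5 pan-leukocyte markers, among them Ptprc, which encodes CD45. The brightest Msi1 probe set read 141, 168.5 and 127 in Msi1 -/- arrays and 144, 150.4 and 257 in wt arrays. Its position relative to the deleted part of the gene is not known here, so it does not check the genotype labels.

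The control regions at the starts of 4 of these genes are shown because they stand for both sides of the genotype comparison: CD3 complex genes, among the 4 of these 10 genes that differed most, and granule genes, with smaller differences. Each is the RefSeq promoter window (GRCm38.p6), 250 bases before to 50 bases after the start, 5′ to 3′ as listed for the strand given. Capitals mark matches to any of 5 motifs, and no marked matches overlap. The core bound by RUNX factors was searched as TGTGGT. An ETS core was searched as AGGAAG. The AP-1 site was searched by the letters TGANTCA. A core of TCF and LEF factors was searched as CTTTGA. The GATA core was searched as AGATAA. Both strands were searched, so a match on the other strand is printed as the reverse complement.
Cd3g, chr9:44980382-44980681, minus strand: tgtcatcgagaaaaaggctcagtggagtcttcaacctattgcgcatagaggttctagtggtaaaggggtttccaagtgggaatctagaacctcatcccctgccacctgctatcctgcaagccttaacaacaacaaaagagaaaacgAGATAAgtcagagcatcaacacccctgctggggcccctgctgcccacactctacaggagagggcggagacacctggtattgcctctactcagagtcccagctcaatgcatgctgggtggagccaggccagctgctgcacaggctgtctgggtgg
Cd247, chr1:165788431-165788730, plus strand: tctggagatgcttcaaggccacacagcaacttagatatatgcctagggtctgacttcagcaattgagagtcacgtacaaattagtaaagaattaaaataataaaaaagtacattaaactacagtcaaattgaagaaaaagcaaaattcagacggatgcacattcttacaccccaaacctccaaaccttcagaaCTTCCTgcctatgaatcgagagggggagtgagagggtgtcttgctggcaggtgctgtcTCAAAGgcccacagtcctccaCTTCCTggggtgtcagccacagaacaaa
Gzmb, chr14:56262285-56262584, minus strand: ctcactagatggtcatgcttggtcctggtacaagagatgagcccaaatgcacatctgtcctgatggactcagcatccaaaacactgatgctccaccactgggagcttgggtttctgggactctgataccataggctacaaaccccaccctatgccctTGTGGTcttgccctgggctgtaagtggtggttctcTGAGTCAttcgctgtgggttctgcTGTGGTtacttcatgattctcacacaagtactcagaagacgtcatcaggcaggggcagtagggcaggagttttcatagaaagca
Nkg7, chr7:43436888-43437187, plus strand: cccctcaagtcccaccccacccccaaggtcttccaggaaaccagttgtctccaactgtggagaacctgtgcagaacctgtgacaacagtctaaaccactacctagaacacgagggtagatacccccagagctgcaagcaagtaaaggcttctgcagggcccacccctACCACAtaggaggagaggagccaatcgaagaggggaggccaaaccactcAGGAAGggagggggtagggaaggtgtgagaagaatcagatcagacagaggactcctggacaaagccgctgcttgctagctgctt

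Of the 10 genes, 7 had a window in the table. TGTGGT was present in 3 of these 7, Gzma, Gzmb and Nkg7, against 16.8% of all 32851 windows. AGGAAG was present in 3 of 7, Cd247, Cd3e and Nkg7, against 35.4% of all windows. The AP-1 letters were found in 1 of 7, Gzmb, against 7.81%, the GATA core in 1, Cd3g, against 11.2%, and the TCF and LEF core in 1, Cd247, against 16%. TATAAA occurred in 0 of the 7 windows, against 13.6% of all windows. Another ETS core, CCGGAA, was also searched and occurred in 0 of 7, against 14.9%. The E-box letters CANNTG occurred in 7 of 7, against 72.3%. These are matches of letters and not measured binding sites. Cd3g and Cd3e lie on either side of Cd3d on chromosome 9, and Klrd1 lies beside Klrk1 on chromosome 6, so both belong to clusters of related genes.

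The comparison asked whether T and NK cell transcripts differed between Msi1 -/- and wt tumour preparations. All 10 genes had a higher mean in Msi1 -/- arrays, against 50.2% of all genes and 77.3% of the 44 olfactory receptor probe sets. Their median log2 difference (Msi1 -/- minus wt) was 0.16, against 0.00 over all genes and 0.03 over the olfactory receptor probe sets. Among the 10 genes the differences were widest for Cd3g, Cd2, Klrd1 and Cd247 and close to 0 for Cd4 and the granzymes. None passed the test: 0 of 10 had an adjusted p under 0.05 (limma, Benjamini-Hochberg over 45037 probe sets), as did 0% of all probe sets. At an unadjusted p under 0.05 there were 4 of 10, all higher in Msi1 -/- arrays, against 1.6% of genes higher and 1.85% lower. In this bulk RNA, a different number of lymphocytes and a different amount of RNA per lymphocyte cannot be told apart.

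The count of 4 depended on single arrays. It was 0 without Msi1 -/- replicate 2, 0 without wt replicate 1, and 2 without Msi1 -/- replicate 1 or without wt replicate 3. The median log2 difference of 0.16 was 0.10 without wt replicate 1, and 0.25 without Msi1 -/- replicate 1 or without wt replicate 2. Without both Msi1 -/- replicate 2 and wt replicate 1, a choice made after seeing the data, 7 of 10 genes had a higher mean and the median was 0.08.

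Among the signalling chains of the T cell receptor, Cd3g, which encodes CD3 gamma, read 197, 300.1 and 167.3 in Msi1 -/- arrays, against 131, 166.6 and 161 in wt arrays. The groups did not overlap, but Msi1 -/- replicate 3 and wt replicate 2 were nearly equal, and Msi1 -/- replicate 2 stood well above the other 5 arrays. The mean was 222 ± 69.7 in Msi1 -/- and 153 ± 19.3 in wt arrays (SD, n = 3 each), a log2 difference of 0.50 ± 0.21 (SE). The limma adjusted p was 0.9997, and the exact two-sided permutation p was 0.1, the smallest that 3 against 3 arrays allow. Without Msi1 -/- replicate 2 the difference was 0.26 ± 0.13, and without that array and wt replicate 1 it was 0.15 ± 0.11 (SE).

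Cd247, the zeta chain, read 121, 161 and 125 in Msi1 -/- arrays, against 100, 109.6 and 122 in wt arrays. Msi1 -/- replicate 2 was again the high array, the groups overlapped, and 0 of 6 values exceeded the background of their array. The log2 difference was 0.29 ± 0.12 (SE), and 0.16 ± 0.09 without Msi1 -/- replicate 2. The other 3 of its 4 probe sets, with means of 94.6 to 109 in the groups, differed by 0.02 to 0.06. Cd3e, CD3 epsilon, was above background in all 6 arrays. It read 387, 366 and 345 in Msi1 -/- arrays, against 304, 346 and 341 in wt arrays, a log2 difference of 0.15 ± 0.10 (SE). Here wt replicate 1 stood low, Msi1 -/- replicate 3 lay among the other wt arrays, and the exact permutation p was 0.2.

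Cd2, an adhesion receptor of T and NK cells, read 143, 227.5 and 163 in Msi1 -/- arrays, against 107, 141 and 139 in wt arrays. All Msi1 -/- values lay above all wt values, yet only that of Msi1 -/- replicate 2 exceeded its array's background. The mean was 178 ± 44 in Msi1 -/- and 129 ± 18.7 in wt arrays (SD, n = 3 each), with a log2 difference of 0.45 ± 0.18 (SE). It was 0.26 ± 0.13 without Msi1 -/- replicate 2 and 0.13 ± 0.09 without that array and wt replicate 1. Cd2 and Cd3g were the 2 of 10 members without overlap, both higher in Msi1 -/- arrays. Over all genes, 4% were without overlap and higher, and 4.28% without overlap and lower. Among the 44 olfactory receptor probe sets, 4 were without overlap and higher, and 0 lower.

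**Figure D1:**
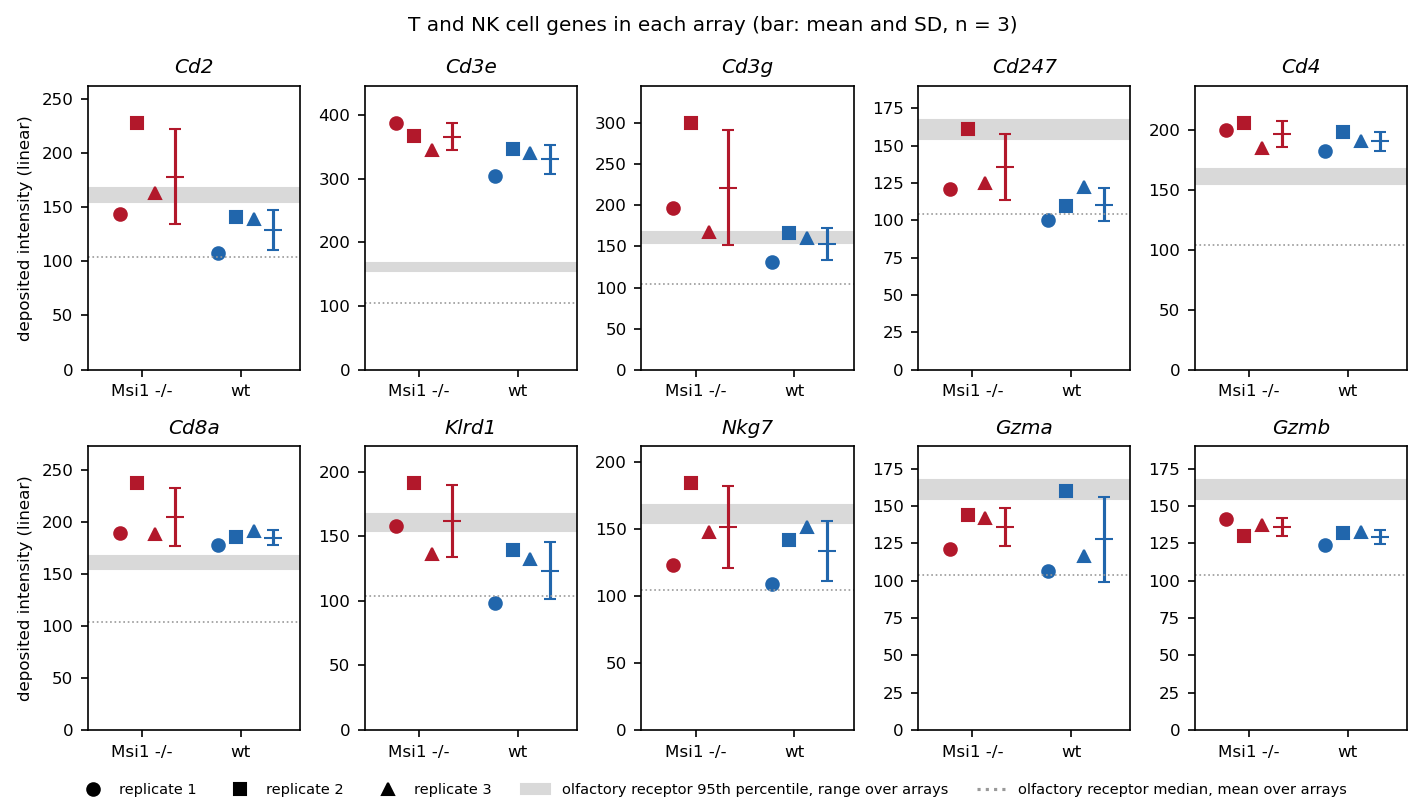
Deposited intensity (linear axis from 0) of each of the 10 genes in the 3 Msi1 -/- arrays and the 3 wt arrays, with symbols for replicates, mean and SD beside them, and the grey band for the range of olfactory receptor backgrounds. Msi1 -/- replicate 2 is the highest array for 7 of the 10 genes and wt replicate 1 the lowest for all 10, while the granzymes lie at or below the band.

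The co-receptor genes Cd4 and Cd8a were above background in every array by their brightest probe sets, and differed little. Cd4 read 199, 205.5 and 184.5 in Msi1 -/- arrays, against 182, 198 and 190.4 in wt arrays, a log2 difference of 0.04 ± 0.07 (SE). The groups overlapped and each spread was wider than the difference of the means. Its second probe set differed by -0.01 ± 0.06 (SE), with no value above background. Cd8a, the alpha chain of CD8, read 189, 237 and 188.5 in Msi1 -/- arrays, against 178, 185 and 191.5 in wt arrays, a log2 difference of 0.14 ± 0.10 (SE). Only Msi1 -/- replicate 2 lay outside the wt range. The 5 Cd8a probe sets differed by -0.02 to 0.16, and 4 of the 5 had a higher mean in Msi1 -/- arrays. Some of the 5 exceeded background in no array, at group means of 92.6 and 93.8 or of 112 and 104. All 5 were highest in Msi1 -/- replicate 2, one of them at 195.5 against 126 to 149.6 in the other 5 arrays. Cd8b1, a co-receptor chain outside the members, differed more, by 0.37 ± 0.18 (SE), and was above background in every array. It read 190.4, 320.8 and 236.9 in Msi1 -/- arrays, against 168.8, 189.1 and 208.6 in wt arrays. These groups also overlapped.

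Of the NK receptor and granule genes, Klrd1 differed most. It read 158, 191 and 136 in Msi1 -/- arrays, against 98.2, 139.7 and 132 in wt arrays, a log2 difference of 0.39 ± 0.16 (SE; exact permutation p = 0.2). The groups overlapped through Msi1 -/- replicate 3 and wt replicate 2, and 1 of 6 values exceeded background, that of Msi1 -/- replicate 2. Nkg7, a granule membrane protein of NK and cytotoxic T cells, read 123, 184 and 148 in Msi1 -/- arrays, against 108.5, 141.5 and 151 in wt arrays. Its log2 difference was 0.17 ± 0.17 (SE), with overlapping groups and 1 of 6 values above background. Without Msi1 -/- replicate 2 and wt replicate 1 the Nkg7 difference had the opposite sign, -0.12 ± 0.11 (SE).

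Gzma, granzyme A, read 121, 144 and 142 in Msi1 -/- arrays, against 107, 160.0 and 116.5 in wt arrays, and the highest array was wt replicate 2. Gzmb, granzyme B, read 142, 129.7 and 137 in Msi1 -/- arrays, against 124, 132 and 132 in wt arrays. For both granzymes 0 of 6 values exceeded background. Their log2 differences were 0.10 ± 0.15 for Gzma and 0.07 ± 0.06 for Gzmb (SE), and that of Gzma was -0.01 without wt replicate 1. A difference of Gzma or Gzmb was not detected at this signal, and what could have been detected was not tested. Of the other granzyme genes examined, only Gzmk was above background in every array. It differed by 0.06 ± 0.11 (SE), with overlap.

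Across the 10 genes, 15 of 30 values in Msi1 -/- arrays and 11 of 30 in wt arrays exceeded background. By array the number was 4, 7 and 4 of 10 in Msi1 -/- arrays and 3, 4 and 4 of 10 in wt arrays, so that the other 5 arrays differed by 1 gene at most. By their brightest probe sets, Cd3e, Cd4 and Cd8a were above it in every array, and Cd247, Gzma and Gzmb in none. The olfactory receptor probe sets themselves were slightly higher in Msi1 -/- arrays, 34 of 44 by mean, with a median log2 difference of 0.03 and a range of -0.05 to 0.10. The differences of Cd4 and Gzmb lay within that range. With the median olfactory value of each array subtracted first, the median difference of the 10 genes was 0.32, all 10 means were higher, and 0 of 10 had an unadjusted p under 0.05.

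**Figure D2:**
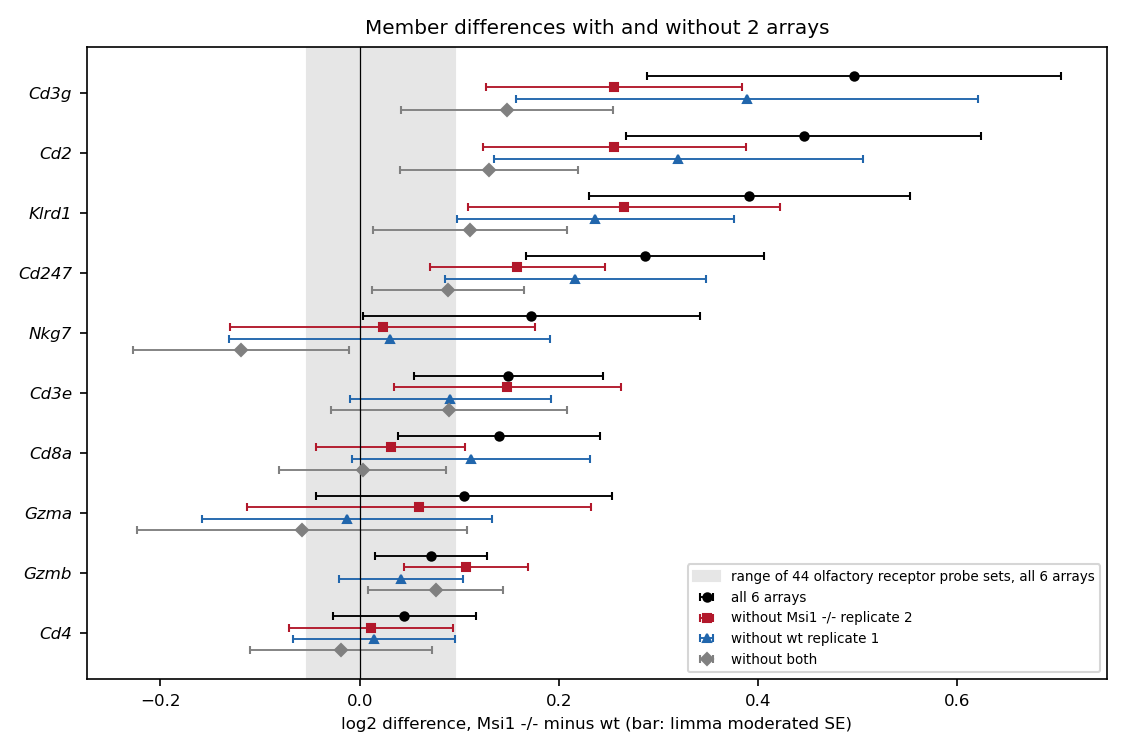
Log2 difference of each gene, Msi1 -/- minus wt, with limma's moderated SE, from all 6 arrays and without Msi1 -/- replicate 2, without wt replicate 1 and without both; the grey band spans the 44 olfactory receptor probe sets. Cd3g moves to 0.15 and Cd2 to 0.13 without both arrays, and Cd4, Nkg7 and Gzma lie below 0.

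The high array and the low array were shared by most of the genes. Msi1 -/- replicate 2 was highest for 7 of 10 genes, against 19.9% of all genes, and wt replicate 1 was lowest for 10 of 10, against 17.9% of all genes and 40.9% of the olfactory receptor probe sets (18 of 44). Centred on their 6 arrays, the genes had a median log2 level of 0.02, 0.34 and 0.01 in Msi1 -/- replicates 1, 2 and 3 and of -0.28, -0.01 and -0.02 in wt replicates 1, 2 and 3. The remaining 4 arrays, 2 of each genotype, thus lay between -0.02 and 0.02.

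Both arrays also stood apart in markers of other cells, whose part in the T and NK result was not tested. B and plasma cell markers, 10 of 11 measured, had a higher mean in Msi1 -/- arrays for 9, with a median log2 difference of 0.33. Of the 10, 9 were highest in Msi1 -/- replicate 2. Their summed intensity was 8835, 13759 and 6312 in Msi1 -/- arrays and ranged from 7600 to 9847 in wt arrays. Ms4a1, which encodes CD20, read 104, 639 and 353 in Msi1 -/- arrays, against 86.2, 257 and 258 in wt arrays. Msi1 -/- replicate 1 and wt replicate 1 thus were the low arrays for Ms4a1, while the T and NK genes were low in wt replicate 1 alone.

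Genes of lymph node stroma and follicles, 3 of 5 measured, were all highest in Msi1 -/- replicate 2. Their summed intensity ranged from 869 to 4941 in Msi1 -/- arrays and from 952 to 1714 in wt arrays. Glycam1, a ligand on the high endothelial venules through which lymphocytes enter lymph nodes, read 171, 1135 and 414 in Msi1 -/- arrays, against 173, 199 and 441 in wt arrays. Cxcl13, the chemokine that attracts B cells to follicles, read 453, 3536.5 and 1127 in Msi1 -/- arrays, against 1340.5, 529 and 1041 in wt arrays. In both genes Msi1 -/- replicate 3 lay within the wt range. Msi1 -/- replicate 1 lay just below it for Glycam1, and further below it for Cxcl13, at 453 against a lowest wt value of 529.

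The low array was also low in pan-leukocyte and dendritic cell transcripts. Ptprc read 3034.5, 2677.5 and 2320.5 in Msi1 -/- arrays, against 1406, 2496 and 2398 in wt arrays. The 5 pan-leukocyte markers summed to 13201 to 18980 in Msi1 -/- and 9620 to 15288 in wt arrays. All 5 had a higher mean in Msi1 -/- arrays, with a median log2 difference of 0.32. Wt replicate 1 was the lowest array for 4 of these 5, and Msi1 -/- replicate 1 the highest for 5 of 5. Dendritic cell markers, 6 of 6 measured, summed to 1534 to 2723 in Msi1 -/- and 1074 to 2060 in wt arrays. Of these, 5 were lowest in wt replicate 1, and 5 had a higher mean in Msi1 -/- arrays, with a median log2 difference of 0.23. Macrophage and monocyte markers, 10 of 10 measured, followed another order: none was highest in Msi1 -/- replicate 2. Their sums were 31480 to 53447 in Msi1 -/- and 36994 to 44468 in wt arrays. A higher mean in Msi1 -/- arrays was found for 7 of the 10, with a median log2 difference of 0.05. Acinar cell markers, 7 of 9 measured, summed to 11333, 12599 and 31094 in Msi1 -/- arrays and 33085 to 49686 in wt arrays, and all 7 had a lower mean in Msi1 -/- arrays. Endothelial markers, 5 of 5 measured, all had a higher mean in Msi1 -/- arrays, with a median log2 difference of 0.28, 2 without overlap and 4 lowest in wt replicate 1. They summed to 3622 to 5329 in Msi1 -/- and 3238 to 4180 in wt arrays. A higher mean was found for 3 of 5 neutrophil, 2 of 6 fibroblast and 2 of 6 epithelial markers. No marker was at 0, since the lowest value of any array was 51.2.

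**Figure D3:**
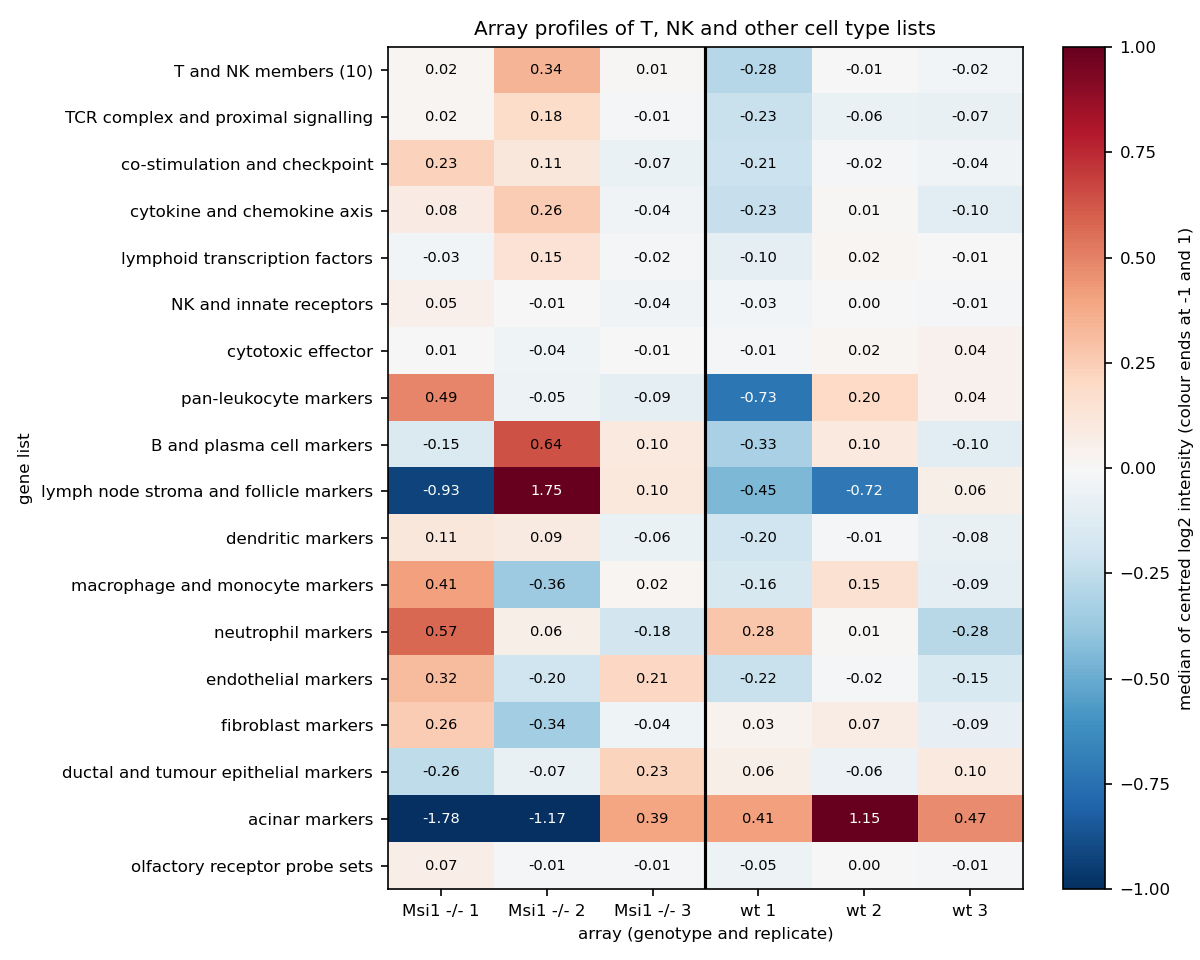
Median centred log2 intensity of each gene list (rows) in the 3 Msi1 -/- arrays, left of the line, and the 3 wt arrays, right of it; colour and printed numbers give the same value. The T and NK genes reach 0.34 in Msi1 -/- replicate 2, where B and plasma cell markers reach 0.64 and lymph node markers 1.75, and -0.28 in wt replicate 1, where pan-leukocyte markers are at -0.73.

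Another 83 genes in 6 lists by role in T and NK cells were examined, of which 72 were measured. Of these 52 (72.2%) had a higher mean in Msi1 -/- arrays, against 50.2% of all genes and 77.3% of the olfactory receptor probe sets. The median log2 difference of the 72 was 0.08. None passed an adjusted p of 0.05 (limma). At an unadjusted p under 0.05, 10 were higher and 0 lower in Msi1 -/- arrays, against 1.6% and 1.85% of all genes. Among the 44 olfactory receptor probe sets there were 0. Without overlap, 8 were higher, against 4% of all genes and 4 of 44 olfactory receptor probe sets. Of the 72, 23 were above background in no array. The lists did not share one pattern. The receptor signalling, co-stimulation and chemokine lists had median log2 differences of 0.18, 0.17 and 0.28, and the transcription factor list 0.08. The NK and cytotoxic lists had medians near 0, at 0.02 and -0.04, beside 0.00 for all genes. The difference between the lists was not tested. The lists were made by role, and not all of their genes are confined to T and NK cells. Tyrobp, Fcer1g and Srgn, of the NK and cytotoxic lists, were highest in Msi1 -/- replicate 1, as were 8 of 10 macrophage and monocyte markers.

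Of the receptor complex and proximal signalling genes, 12 of 13 had a higher mean, with a median log2 difference of 0.18. Cd3d, CD3 delta, read 243, 439 and 239 in Msi1 -/- arrays, against 148, 226 and 227 in wt arrays, a difference of 0.58 ± 0.27 (SE). Its highest and lowest arrays were those of Cd3g. Lat, the adaptor phosphorylated after receptor engagement, differed by 0.34 ± 0.14 and Cd5, an inhibitory surface receptor, by 0.31 ± 0.13 (SE), both without overlap. Lat was above background in all 6 arrays and Cd5 in 1 of 6.

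Co-stimulatory and checkpoint receptors had a higher mean for 10 of 11 genes, with a median of 0.17. Tnfrsf4, which encodes OX40, averaged 319 ± 47.6 in Msi1 -/- and 248.5 ± 13.2 in wt arrays (SD, n = 3 each), a log2 difference of 0.35 ± 0.12 (SE), with all 6 values above background and no overlap. Cd96 differed by 0.17 ± 0.06 without overlap, with 0 of 6 values above background, and Pdcd1, which encodes PD-1, by 0.25 ± 0.105 (SE) with overlap and 1 of 6 values above it. In this list Msi1 -/- replicate 1 was the highest array for 6 genes and replicate 2 for 4. Olfactory receptor probe sets were also highest in Msi1 -/- replicate 1 for 25 of 44.

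Cytokine and chemokine genes had a higher mean for 10 of 11, with a median log2 difference of 0.28. Cxcl9, an interferon-induced chemokine that attracts T cells through CXCR3, read 153.5, 265 and 164 in Msi1 -/- arrays, against 105, 125 and 128 in wt arrays. Its groups did not overlap, at a difference of 0.66 ± 0.20 (SE), but 1 of 3 Msi1 -/- and 0 of 3 wt values exceeded background. Ccr7, the receptor that guides naive T cells and dendritic cells to lymph nodes, read 300.3, 350.2 and 218 in Msi1 -/- arrays, against 123.5, 204 and 215 in wt arrays, a difference of 0.69 ± 0.25 (SE). Cxcr6, a chemokine receptor of tissue T cells, differed by 0.28 ± 0.11 (SE) with overlap. As among the members, wt replicate 1 was the lowest array for all of these 3 genes.

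Cytotoxic effector genes had a higher mean for 5 of 14 and a lower one for 9, with a median log2 difference of -0.04 and 7 of 14 above background in no array. The 3 with the smallest p, Gzmg, Gzmf and Ctsw, which encode 2 further granzymes and a cathepsin of cytotoxic cells, differed by -0.14 ± 0.08, -0.14 ± 0.07 and -0.13 ± 0.10 (SE), all with overlap. NK and innate receptors had a higher mean for 8 of 12 and a median of 0.02, with 7 of 12 above background in no array. Klrg1, an inhibitory receptor, differed by 0.22 ± 0.08 without overlap and with 1 of 6 values above background, Klrk1, which encodes NKG2D, by 0.17 ± 0.09, and Hcst, its adaptor, by -0.14 ± 0.10 (SE). Ncr1, the NK receptor NKp46, averaged 97.0 ± 1.82 in Msi1 -/- and 96.7 ± 1.71 in wt arrays (SD, n = 3 each), with 0 of 6 values above background. Of the defining NK markers, Klrd1 and Ncr1 together had 1 of 12 values above background. Klrb1c, chosen as another defining NK marker, was not measured. Klrd1, Nkg7 and the granzymes are also known from cytotoxic T cells.

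Lymphoid transcription factors had a higher mean for 7 of 11, with a median of 0.08. Gata3, a factor of T helper cells, differed by 0.27 ± 0.11 and Foxp3, the factor of regulatory T cells, by 0.13 ± 0.06 (SE). Foxp3 had 0 of 6 values above background. Tox, a factor of exhausted T cells, differed by -0.24 ± 0.13 (SE). All 3 overlapped between the groups.

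**Figure D4:**
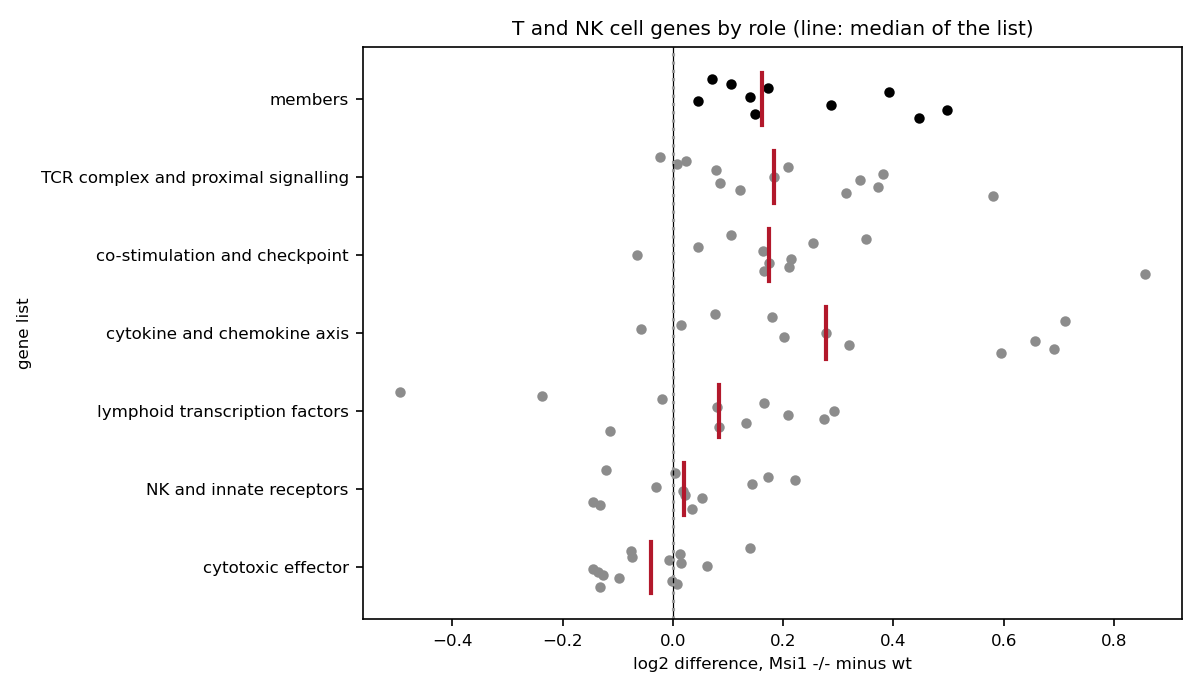
Log2 difference, Msi1 -/- minus wt, of each measured gene (points) in the 10 members and in the 6 lists by role in T and NK cells. The median of each list is a red line. Medians run from -0.04 for cytotoxic effectors to 0.28 for the cytokine and chemokine list, beside 0.00 for all genes (dotted, at the zero line).

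Genes with the most similar array pattern were sought among 11473 other genes above background in every array, by the root mean square difference between their centred log2 values and the mean centred profile of the 10 genes over the 6 arrays. The closest 8 were Hsp90b1, Shmt2, Gmppa, Mydgf, Agps, Usp40, Magt1 and Edem2, at 0.03 to 0.05, while single members lay 0.07 to 0.21 from their own mean profile. None of the 8 is in the T and NK lists. Hsp90b1, an endoplasmic reticulum chaperone, read 4588, 5671 and 4785 in Msi1 -/- arrays, against 3827, 4540.0 and 4596.5 in wt arrays. It had the same high array and the same low array, as had the other 7.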

How the data were processed

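The intensity values, 1 linear column for each array, are as the authors deposited them, with GCRMA named in the submitters' processing notes without version or settings. GCRMA corrects background by probe sequence and normalizes across arrays, and it may compress dim values, where most of these genes lie. Array medians lay between 159.2 and 164.3, and the number of arrays limits the precision. Of 45101 probe sets, 64 controls were left out. Symbols came from the platform annotation, updated by Entrez ID through RefSeq (34754 matched); 34945 probe sets had 1 symbol, 932 several and 9160 none listed.

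Values were analysed as log2(intensity + 1), without a filter and without subtracting background. Background left in the values understates changes of dim genes. The 1 added mattered little: with 16 added, the median log2 difference of the 10 genes was 0.15 rather than 0.16. With the median olfactory value subtracted it was 0.32. A model with genotype alone was fitted to 45037 probe sets (limma 3.58.1, R 4.3.3, trended eBayes, Benjamini-Hochberg at 0.05). On simulated data of this comparison, with 200 changed probe sets in each of 3 runs, it recovered 94.2% of log2 changes of 1, with 14 false calls a run. The simulated noise was independent between probe sets, and changes as small as those of the 10 genes, 0.04 to 0.50, were not simulated. The runs therefore do not show what could be detected for these genes. In the arrays themselves Cela3b, an acinar marker, differed by -1.98 ± 0.59 (SE) at a limma adjusted p of 0.9997. SE is limma's moderated SE.

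The members and lists were chosen with earlier results of these data known. Of each T and NK list the 3 genes with the smallest p are named; other genes, motifs and promoters named were chosen after their values were seen. List genes without a single-symbol probe set were not analysed here. No pairing was used, because the labels do not say that the replicate numbers pair the samples. Deviations of same-numbered arrays of the genotypes correlated at r = 0.17, -0.0906 and 0.282. Those of differently numbered arrays correlated at -0.257 to 0.0578. Alternatives covered normalization, pseudocount, background, filters, probe set choice, array weights and arrays left out.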

Additional observations from a re-analysis of the deposited data

How the results depend on the processing

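Of 160 differences of single T and NK genes under alternative settings, 156 kept their sign and none passed an adjusted p of 0.05. The 4 with the opposite sign were Gzma without wt replicate 1 (-0.013), and Cd4 (-0.019), Nkg7 (-0.12) and Gzma (-0.058) without Msi1 -/- replicate 2 and wt replicate 1, chosen after seeing the data; the cause was not tested. With arrays left out, Cd4 reached 0.089 at most, Nkg7 0.31 and Gzma 0.28. Leaving out 1 array at a time, probe sets past an adjusted p of 0.05 numbered 0 to 1 and those with an unadjusted p under 0.05 numbered 886 to 2723, against 1355. Members with an unadjusted p under 0.05 then numbered 0 to 3, those with a higher mean in Msi1 -/- arrays 9 to 10, and the median log2 difference lay between 0.10 and 0.25. Without both arrays named above the values were 894 probe sets, 0 members at an unadjusted p under 0.05, 7 with a higher mean, and a median of 0.08. The 4 members at an unadjusted p under 0.05 became 0 with an untrended prior, 0 with olfactory background subtracted, 2 with array weights, 2 with probe sets averaged per gene, 1 of the 9 left with a mean log2 filter at 7 and 0 of the 1 left with a filter at 8, where that 1 gene, Cd3e, had a higher mean. Probe sets with an unadjusted p under 0.05 numbered 2153 with array weights, 815 averaged per gene and 546 at the filter of 8, the last with fewer probe sets tested. The replicate number as a block gave 2120 such probe sets, 4 members and 0 adjusted calls; the labels do not say that the numbers pair the samples. Values above background were 39 of 60 at the 90th percentile and 9 of 60 at the 99th, against 26 at the 95th, and 33 of 108 over every probe set of the members.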
